A study of Rattus with 6 samples.

Results

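Perilipins and the lipases of the lipid droplet were followed in rat bone marrow mesenchymal stem cells (BMSC), the stromal cells of marrow that can form bone, fat and cartilage. The set was chosen by name, as the rows of a deposited table of read counts whose gene symbol was Plin1, Plin2, Plin3, Plin4, Plin5, Pnpla2, Lipe, Lpl, Angptl4 or Cd36. Of these 10 symbols, 9 were listed among the 30211 genes of the table, and 7 had enough counts to be tested among 14111 tested genes. Cd36 had no row under that symbol and was not analysed here under its own name. The conditions compared were both wild type and both labelled day 4: 3 libraries from cells given dexamethasone, a synthetic glucocorticoid, at 100 uM, and 3 from cells labelled control and nc, with bone as the tissue of both. A treatment tag naming dexamethasone stands on all 6 samples, so the groups follow titles and descriptions. Whether the controls received vehicle, and whether the replicates were separate cultures or animals, was not given in the sources used here. P-values therefore describe the spread among these libraries alone, and that spread may be technical.

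Cells store fatty acids as triglyceride in lipid droplets, and perilipins are the proteins that coat the droplet and govern which lipases reach it. Plin2 and Plin3 are made in most cell types, Plin1 marks fat cells, Plin4 is found mainly in fat and muscle, and Plin5 in tissues that burn fat. Pnpla2 encodes adipose triglyceride lipase, which takes the first fatty acid from triglyceride inside the cell, and Lipe encodes hormone-sensitive lipase, which acts on the diglyceride that is left. Lpl encodes lipoprotein lipase, a secreted enzyme that frees fatty acids from circulating lipoproteins, Angptl4 a secreted inhibitor of that enzyme, and Cd36 a membrane protein for fatty acid uptake. Glucocorticoids are known to act on fat storage and on lipolysis, and Angptl4 is an established glucocorticoid target in liver and fat.

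Library totals ranged from 34835072 to 41676315 counts with dexamethasone and from 39156705 to 40291671 in the controls. Levels are CPM, counts scaled to the size of the library, with TMM factors (trimmed mean of M-values) that correct that size for composition. Fkbp5, Tsc22d3 and Per1, established targets of the glucocorticoid receptor, rose by 4.30, 2.88 and 1.63 on the log2 scale, higher in 3 of 3 libraries labelled dexamethasone. All 12 listed markers of marrow stroma had counts, among them Vim, Prrx1 and Itgb1, the 3 with the highest level per kilobase. Of these 12, 5 rose and 6 fell at an adjusted p below 0.05 (edgeR's quasi-likelihood test). That is 91.7% of the list, against 64.0% of all tested genes. Vim rose by 1.30, while Prrx1 fell by 3.27 and Itgb1 fell by 0.42 on the log2 scale.

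The perilipin coat genes moved apart. Plin4 rose 41.5-fold over a control level close to 0, Plin2 fell 1.60-fold, and Plin3 fell by 0.13 on the log2 scale. The intracellular lipase genes Pnpla2 and Lipe rose by less than 2-fold, and Lpl and Angptl4 fell. Of the 7 tested genes, 3 rose and 4 fell by edgeR's quasi-likelihood test, at a Benjamini-Hochberg adjusted p below 0.05 over all tested genes. That count is no result in itself, since 64.0% of all tested genes passed, 32.3% higher and 31.7% lower. At an assumed coefficient of variation of 0.2 between replicates, in place of the measured 3.66%, 2 rose and 3 fell, with 26.2% of all tested genes called. Tested against a fold of 1.5, 1 rose (Plin4) and 3 fell (Plin2, Lpl and Angptl4), with 20% of all tested genes called. The median log2 fold change was -0.12 over the 7 genes and close to 0 over all tested genes, and the median size of change without its sign was 0.77 over the 7 genes and 0.31 over all tested genes.

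**Figure D1:**
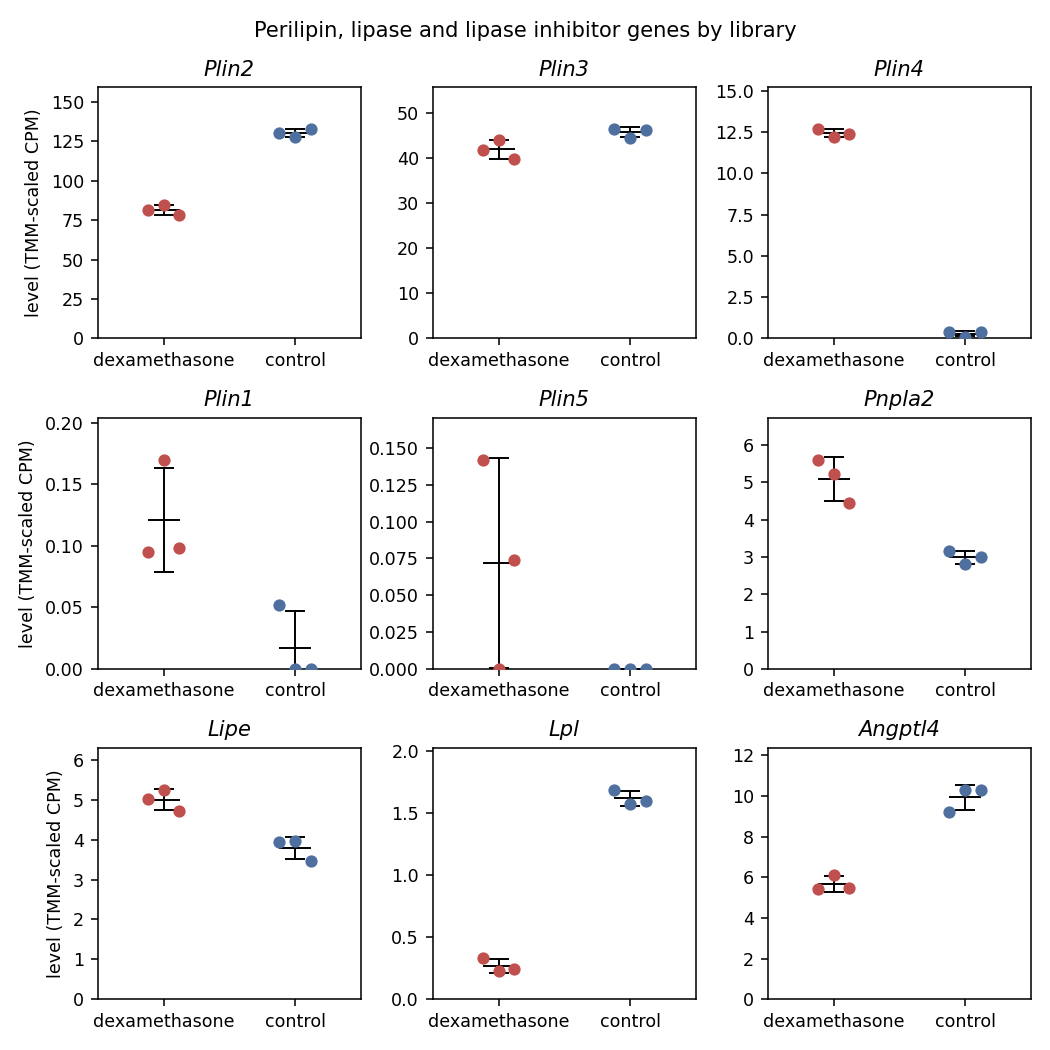
Level of each of the 9 listed genes in TMM-scaled CPM (linear axis from 0) in the 3 dexamethasone and 3 control libraries. Points are libraries, and bars are the mean and SD. The groups are apart for every gene shown but Plin5, as they are for 66.9% of all tested genes. The levels of Plin1 and Plin5 are below 0.2 CPM, and neither was tested.

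Plin4 had 12.7, 12.2 and 12.4 CPM in the dexamethasone libraries, against 0.415, 0.101 and 0.375 CPM in the controls. The dexamethasone libraries lay close together and far above the controls, with 535, 430 and 503 counts in the dexamethasone libraries and 16, 4 and 15 counts in the controls. Plin4 therefore averaged 12.4 ± 0.241 CPM with dexamethasone and 0.297 ± 0.171 CPM in the controls (SD, n = 3 each), a log2 fold change of 5.37 ± 0.52 (SE) and 41.5-fold (adjusted p = 2.7e-27, edgeR's quasi-likelihood test). By log2 fold change it ranked 49 from the top of 14111 tested genes, of which 2.93% were called and at least 4-fold higher. Its level per kilobase of exon stood at the percentile 32.4 of tested genes with dexamethasone and 1.61 in the controls. Plin4 lies on chromosome 9 from 10963723 to 10971277 on the plus strand, with 10 exon entries and 4185 exon bases as the table lists them; the rat build of these coordinates was not given in the sources used here.

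Since Plin4 is known from fat cells, markers of mature fat cells were read beside it. Of the 12 listed, 3 passed the filter on low counts. Of these, Retn, which encodes resistin, and Slc2a4, the insulin-dependent glucose transporter, rose and Cfd did not pass. That is 66.7% called, close to the 64.0% of all tested genes. Retn and Slc2a4 passed the filter through the dexamethasone libraries, where they are high, so their calls could hardly have been falls. Slc2a4 had 18, 23 and 18 counts with dexamethasone, against 10, 4 and 6 in the controls. Retn had 62, 41 and 38 counts with dexamethasone, against 0, 2 and 2 in the controls (log2 5.01). The summed level of the 12 was 2.64 to 3.08 CPM with dexamethasone and 0.700 to 1.06 CPM in the controls. The other markers were not tested. Lep had no count in 6 libraries, and Adipoq had 2 counts in dexamethasone replicate 1 and none elsewhere. Fabp4 had 4, 0 and 4 counts with dexamethasone and none in the controls. To complete the list, Trarg1 had 10, 12 and 12 counts with dexamethasone, against 2, 0 and 2 in the controls. Adig had 4, 8 and 3, against 2, 0 and 0, and Cidec had 2, 0 and 0, against 4, 14 and 4. Thrsp, Pck1 and Acvr1c had at most 6 counts in any library. Only 1 marker rose with the counts halved, and 4 rose without control replicate 2. In bulk samples such as these, a change in the number of cells of a type and a change in RNA per cell cannot be told apart.

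Plin2, which coats the droplets of most cells, had the highest level of the set. It had 81.2, 84.5 and 78.4 CPM with dexamethasone, against 130, 128 and 133 CPM in the controls, and every dexamethasone library was below every control. The mean was 81.4 ± 3.08 CPM with dexamethasone and 130 ± 2.49 CPM in the controls (SD, n = 3 each), a log2 fold change of -0.68 ± 0.035 (SE) or 1.60-fold lower (adjusted p = 2.0e-21, edgeR). Plin2 lies on chromosome 5 from 104984414 to 105010857, on the minus strand.

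Plin3, the other widely made coat protein, had 41.9, 44.1 and 40.0 CPM with dexamethasone, against 46.5, 44.5 and 46.3 CPM in the controls. The groups did not overlap, as was so for 66.9% of tested genes, but dexamethasone replicate 2 lay within 1 CPM of control replicate 2. Plin3 averaged 42.0 ± 2.08 CPM with dexamethasone and 45.8 ± 1.11 CPM in the controls (SD, n = 3 each), a log2 fold change of -0.13 ± 0.046 (SE) (adjusted p = 0.0200, edgeR). That call was lost without dexamethasone replicate 3 (adjusted p = 0.159), control replicate 1 (0.0585) or control replicate 3 (0.0518), with library size alone (0.109), at a coefficient of variation of 0.2 (0.792) and against a fold of 1.5 (adjusted p = 1), all in edgeR.

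The fat cell perilipin Plin1 and the perilipin of oxidative tissues Plin5 were close to the limit of detection and were not tested. Plin1 (chromosome 1, 141458181 to 141471010, minus strand) had 4, 6 and 4 counts with dexamethasone, against 2, 0 and 0 in the controls. Low values in the table came mostly in steps of 2 (70.3% of values from 1 to 20 were even), so counts were read as pairs, and the ratio of read pairs was 7.0 with an exact 95% binomial interval of 0.899 to 315, which includes no change. Plin5 had 6, 0 and 3 counts with dexamethasone and none in 3 controls. A dexamethasone library was also at 0, so the groups overlap, and no fold is given. These intervals and floors cover counting error only.

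Per kilobase of exon, the scale on which genes can be set beside each other, Plin2 and Plin3 made up nearly the whole of the perilipin transcripts in both groups. Plin2 made up 55.5%, 55.5% and 55.8% of the summed perilipin level with dexamethasone, against 66.4%, 67.0% and 66.9% in the controls. The share of Plin3 was 40.5%, 40.9% and 40.2% with dexamethasone, against 33.5%, 33.0% and 33.0% in the controls, so it was higher although the level of Plin3 itself was not. Plin4 held 3.78 ± 0.193% with dexamethasone and 0.0672 ± 0.0381% in the controls (SD, n = 3 each). The summed perilipin level was lower with dexamethasone, at 78.7 ± 3.20 CPM per kilobase against 105 ± 2.14 in the controls. For each of these 4 measures the groups did not overlap and the two-sided exact permutation p was 0.1, the smallest that 3 against 3 samples can give (0.114 adjusted over 8 such tests by Benjamini-Hochberg). Without the length correction, the difference in Plin4's share was 8.98 percentage points in place of 3.71, since its exons are the longest of the family.

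**Figure D2:**
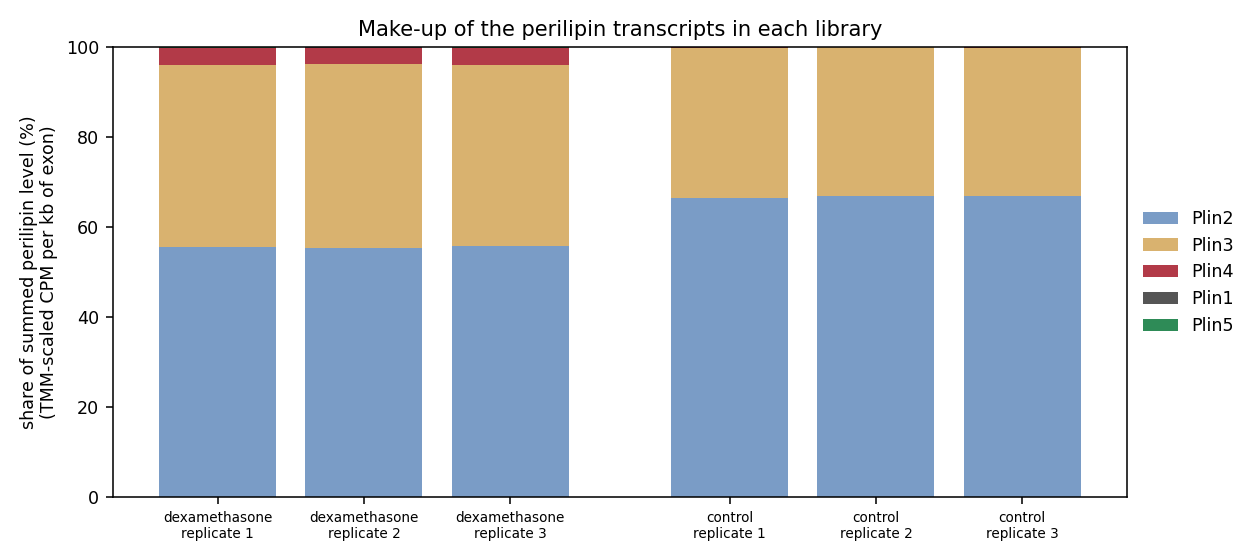
Share of each perilipin in the summed perilipin level, in percent of TMM-scaled CPM per kilobase of exon, for each library. Plin2 falls to 55.6% with dexamethasone, against 66.8% in the controls, and Plin4 is visible only in the dexamethasone libraries, while Plin1 and Plin5 are too low to see.

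The intracellular lipase genes rose together, by modest amounts. Pnpla2 (chromosome 1, 214434626 to 214439720, plus strand) had 5.61, 5.22 and 4.46 CPM with dexamethasone, against 3.16, 2.81 and 3.0 CPM in the controls, with no overlap. It averaged 5.10 ± 0.588 CPM with dexamethasone and 2.99 ± 0.175 CPM in the controls (SD, n = 3 each), a log2 fold change of 0.77 ± 0.11 (SE) (adjusted p = 5.2e-06, edgeR). Against a fold of 1.5 it did not pass (adjusted p = 0.139, edgeR). Lipe had 5.02, 5.25 and 4.73 CPM with dexamethasone, against 3.94, 3.98 and 3.47 CPM in the controls, again with the groups apart. Its log2 fold change was 0.40 ± 0.076 (SE) (adjusted p = 0.00729, edgeR), and it was not called at a coefficient of variation of 0.2 (adjusted p = 0.284) or against a fold of 1.5 (where adjusted p = 1). Exons of Lipe (chromosome 1, 82248046 to 82266727, minus strand) overlap AC121639.1 on the plus strand, and the strand setting of the counting was not given in the sources used here, so some reads may belong to either gene. Per kilobase, the ratio of Pnpla2 to Lipe was 1.85, 1.64 and 1.56 with dexamethasone, against 1.33, 1.17 and 1.43 in the controls (two-sided exact permutation p = 0.1, the smallest possible, 0.114 adjusted).

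Lpl, at low levels throughout, showed the largest fall of the set. The gene (chromosome 16, 22537056 to 22561496, minus strand) had 0.332, 0.227 and 0.246 CPM (14, 8 and 10 counts) with dexamethasone, against 1.69, 1.57 and 1.60 CPM (65, 62 and 64 counts) in the controls. The highest dexamethasone library was well below the lowest control. Means of 0.268 ± 0.0557 CPM with dexamethasone and 1.62 ± 0.0596 CPM in the controls (SD, n = 3 each) gave a log2 fold change of -2.57 ± 0.14 (SE), or 5.92-fold lower (adjusted p = 1.6e-09, edgeR). Lpl is also made by macrophages, so their markers are given beside it. Of 18 listed macrophage markers, 7 passed the filter, of which 3 fell (Cd68, Cd74 and Lyz2) and 0 rose. That is 42.9% called, below the 64.0% of all tested genes, of which 31.7% fell. Cd74 and Lyz2 passed the filter through the control libraries, where they are high, so their calls could hardly have been rises. Cd74 had 10, 2 and 5 counts with dexamethasone, against 54, 67 and 85 in the controls. Itgam, not tested, had 2, 0 and 0, against 8, 11 and 8, and Fcgr1a, Mrc1 and Aif1 had at most 4 counts in any library. The summed level was 9.30 to 9.83 CPM with dexamethasone and 12.2 to 12.7 CPM in the controls. Most of that sum was Cd14, at 7.65 CPM with dexamethasone and 7.27 CPM in the controls, which did not pass. Adgre1, Msr1, C1qa, C1qb, Tyrobp, Cd163 and Marco had no count in 6 libraries, and Cd68 stood at 0.509 CPM with dexamethasone and 1.21 CPM in the controls. The part of macrophage RNA in the fall of Lpl was not tested.

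Angptl4, the inhibitor of lipoprotein lipase, was lower as well. On chromosome 7 (18627808 to 18634079, minus strand), it had 5.40, 6.10 and 5.49 CPM with dexamethasone, against 9.23, 10.3 and 10.3 CPM in the controls, so that every dexamethasone library was below every control. Its mean was 5.66 ± 0.378 CPM with dexamethasone and 9.94 ± 0.612 CPM in the controls (SD, n = 3 each), a log2 fold change of -0.81 ± 0.075 (SE) (adjusted p = 2.1e-09, edgeR). Because Lpl fell more than its inhibitor, the ratio of Angptl4 to Lpl per kilobase was 31.7, 52.3 and 43.4 with dexamethasone, against 10.6, 12.7 and 12.5 in the controls (two-sided exact permutation p = 0.1, the smallest possible, 0.114 adjusted). The dexamethasone ratios rest on 14, 8 and 10 counts of Lpl, so their size is uncertain.

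**Figure D3:**
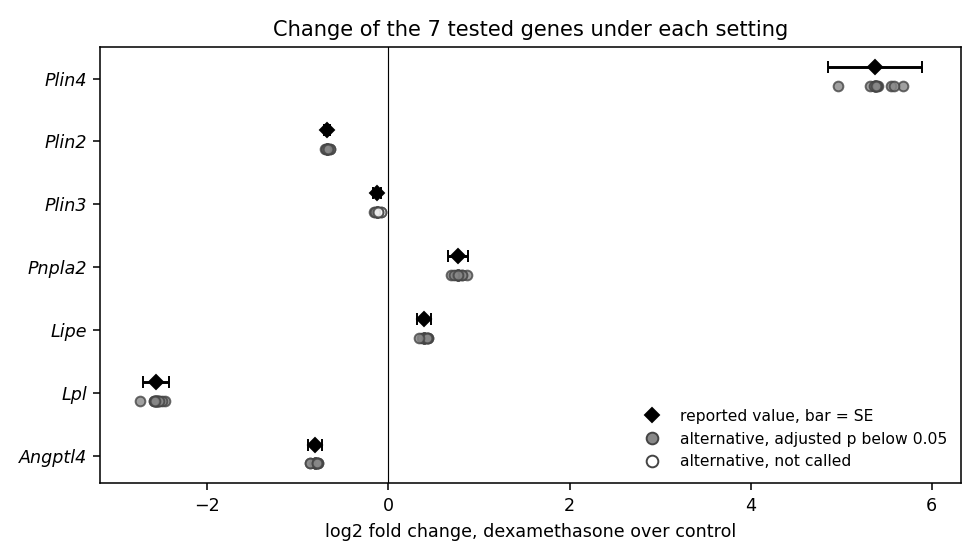
Log2 fold change, dexamethasone over control, of the 7 tested genes. Diamonds with SE bars are the reported values, filled circles are alternative settings with an adjusted p below 0.05, and open circles are alternatives where the call was lost. No gene changes sign, and Plin3 lies nearest to 0.

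In order of level per kilobase, the dexamethasone libraries held Plin2 at 43.7 ± 1.66, Plin3 at 31.9 ± 1.58, Angptl4 at 3.0 ± 0.20 and Plin4 at 2.97 ± 0.0577 CPM per kilobase (SD, n = 3), followed by Pnpla2 at 2.27 ± 0.262, Lipe at 1.35 ± 0.0700, Lpl at 0.0731 ± 0.0152 and then Plin1 and Plin5. Angptl4 and Plin4 did not differ beyond their spread, nor did Plin1 and Plin5. In the controls the order was Plin2 at 70.0 ± 1.34, Plin3 at 34.8 ± 0.843, Angptl4 at 5.26 ± 0.324, Pnpla2 at 1.33 ± 0.0782, Lipe at 1.03 ± 0.0760, Lpl at 0.441 ± 0.0162 and Plin4 at 0.0710 ± 0.0408 CPM per kilobase (SD, n = 3), with Plin1 and Plin5 last. Plin4 was thus level with Angptl4 in the dexamethasone libraries and below Lpl in the controls.

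Reads at the Cd36 locus could not be assigned to Cd36. Between Gnat3 and Sema3c on chromosome 4 the table held RGD1565355 (14001761 to 14249749, plus strand), whose 116 exon entries spanned 248 kb and overlapped the entries AABR07059308.1 and LOC103690020. In the rat RefSeq gene table (assembly GRCr8), RGD1565355 is an older name of Cd36l1, and Cd36, Cd36l1, LOC134486712 and Cd36-ps1 neighbour each other between the same flanking genes. The 3 entries of the count table were named after their values were seen and are uncertain, because near-identical copies could share reads. RGD1565355 had 1302, 1036 and 1240 counts with dexamethasone, against 0, 1 and 2 in the controls, a ratio of read pairs of 894 (exact 95% binomial interval 247 to 7391; adjusted p = 8.6e-38, edgeR). LOC103690020 had 58, 31 and 40 counts with dexamethasone and none in the controls, which with 6 counts as the control floor is at least 21.5-fold higher. AABR07059308.1 had 41, 50 and 64 counts with dexamethasone, against 2, 0 and 2 in the controls, a ratio of read pairs of 39.0 (10.4 to 328). The 3 entries passed the filter on low counts through the dexamethasone libraries, so the adjusted p is descriptive only. The intervals and the floor cover counting error only. All 3 entries were higher in 3 of 3 dexamethasone libraries, and which gene of the locus the reads came from cannot be told from these counts.

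Of the 5 perilipin genes, 3 lie within one stretch of chromosome 9 and on the same strand. Plin3 (10773901 to 10781109) is followed 174.9 kb later by Plin5 (10956056 to 10961782), which ends 1940 bases before Plin4 begins. Plin5 had 9 counts with dexamethasone, where its neighbour Plin4 had 1468. Of 15 entries from Plin3 to Hdgfl2, 10 were tested, of which 6 rose, 2 fell and 2 did not pass, where 64.0% of all tested genes were called and 32.3% rose. Besides Plin4 the risers, picked for naming once their values were known, were Dpp9 (log2 0.16), Hdgfl2 (0.45), Sema6b (1.56), Tnfaip8l1 (1.81) and AABR07066529.3 (4.21). Lrg1, between Sema6b and Plin5, had 3 counts in all.

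**Figure D4:**
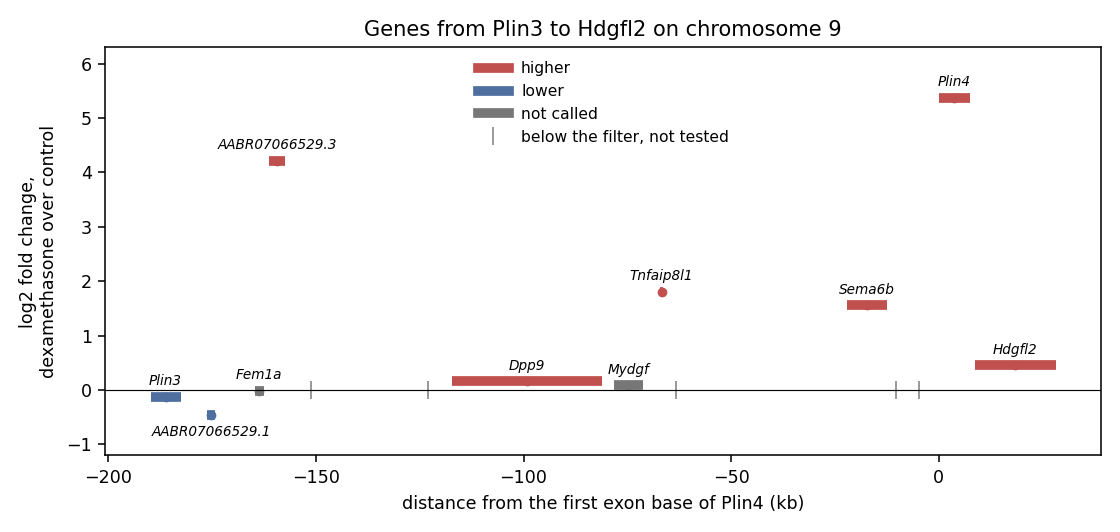
Log2 fold change, dexamethasone over control, of the genes from Plin3 to Hdgfl2 on chromosome 9, against distance in kb from the first exon base of Plin4. Bars span each gene's exons, and grey ticks at 0 are entries below the filter on low counts. Plin4 stands highest at 5.37, next to Hdgfl2 at 0.45.

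Other droplet proteins and regulators of lipolysis moved both ways. Of 16 tested out of 21, 7 rose and 5 fell, with a median log2 fold change of -0.03. The called share was 75.0%, against 64.0% of all tested genes. Partners of Pnpla2 fell: Abhd5, its activator, averaged 43.9 ± 1.22 CPM with dexamethasone and 87.9 ± 2.41 CPM in the controls (SD, n = 3 each), a log2 fold change of -1.0. The inhibitors of Pnpla2 fell as well, G0s2 to 0.354 CPM with dexamethasone, against 2.67 CPM in the controls (log2 -2.90), and Hilpda to 0.903 CPM, against 3.18 CPM in the controls (log2 -1.82). Cidea, a droplet fusion protein, fell too (log2 -2.47), while Cidec had 2 counts with dexamethasone and 22 in the controls and was not tested. Of the 3 most abundant per kilobase, Spart, which encodes spartin, rose (log2 0.55), and Rab18, a small GTPase of droplets, and Aup1 did not pass (-0.02 and -0.09). Mgll, which encodes monoglyceride lipase, had no count in any library. At a coefficient of variation of 0.2, 2 rose and 4 fell, where 26.2% of all tested genes were called.

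Of 14 tested genes of triglyceride synthesis out of 16, 9 rose and 2 fell, with a median log2 fold change of 0.27, where 32.3% of all tested genes rose and 31.7% fell. Dgat2, which makes triglyceride from diglyceride, had 31.7, 32.3 and 37.2 CPM with dexamethasone, against 17.0, 14.5 and 15.9 CPM in the controls, a log2 fold change of 1.10 ± 0.097 (SE) (adjusted p = 9.0e-18, edgeR). Its counterpart Dgat1 did not pass (log2 0.07; adjusted p = 0.490, edgeR). The 3 most abundant per kilobase were Gpat4 (log2 0.39) and Gpat3 (0.14), which add the first fatty acid to glycerol phosphate, and Lpin3 (0.48), a phosphatidate phosphatase, and all 3 rose, as did Lpin1 (0.23). Most of these changes were small, and 2 rises and 1 fall passed at a coefficient of variation of 0.2 (26.2% of all tested genes did), and 1 of each against a fold of 1.5 (20% did).

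Of 13 tested partners of lipoprotein lipase and lipoprotein receptors out of 21, 10 fell and 2 rose, and the median log2 fold change was -0.41. Over all tested genes, 31.7% fell and 32.3% rose. Vldlr, the receptor for very low density lipoprotein, had 11.7, 11.6 and 12.2 CPM with dexamethasone, against 49.0, 52.5 and 45.2 CPM in the controls, a log2 fold change of -2.05 ± 0.066 (SE) (adjusted p = 3.2e-30, edgeR). Lrp1, a large endocytic receptor and the most abundant of the list, averaged 2808 ± 47.5 CPM with dexamethasone and 4361 ± 23.5 CPM in the controls (SD, n = 3 each). Sel1l and Lmf1, which help the enzyme mature in the endoplasmic reticulum, fell slightly (log2 -0.12 and -0.30), as did Apoe (-0.19), whose groups overlap. The risers, named after their values were seen, were Lmf2 (log2 0.53), the paralogue of Lmf1, and Sort1 (1.13). Angptl8, a partner of other angiopoietin-like inhibitors and named after its values were seen, had 0.221 ± 0.0289 CPM with dexamethasone and 6.58 ± 0.500 CPM in the controls. Gpihbp1, the endothelial anchor of the enzyme, had 2 counts in all. At a coefficient of variation of 0.2 or against a fold of 1.5, 6 fell and 1 rose. Over all tested genes, 26.2% and 20% were called at these settings.

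**Figure D5:**
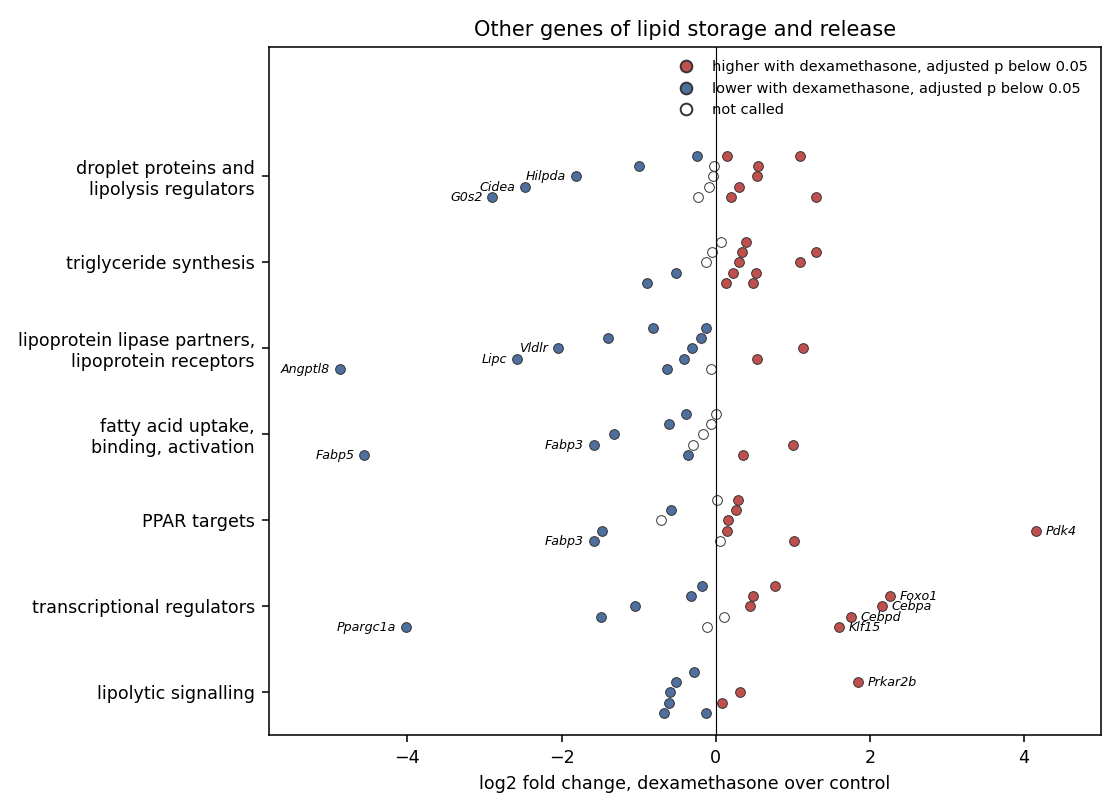
Log2 fold change, dexamethasone over control, of each tested gene of 7 lists of lipid storage and release (PPAR, peroxisome proliferator-activated receptor). Filled circles passed an adjusted p below 0.05, open circles did not, and genes that changed by at least 1.5 on the log2 scale are labelled. Angptl8 at -4.88 and Fabp5 at -4.56 stand lowest, and Pdk4 at 4.15 highest.

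Genes of fatty acid uptake, binding and activation fell in 6 cases and rose in 2 of 12 tested out of 18, with a median log2 fold change of -0.33. The called share, 66.7%, was close to the 64.0% of all tested genes. Fabp5, a cytosolic fatty acid binding protein, had 0.569, 0.624 and 0.591 CPM with dexamethasone, against 14.9, 14.6 and 12.7 CPM in the controls, a log2 fold change of -4.56 ± 0.081 (SE) (adjusted p = 3.0e-29, edgeR). Among the acyl-CoA synthetases, which activate fatty acids, Acsl4 fell (log2 -1.32), Acsl1 fell (-0.39) and Acsl5 rose (0.36). Got2, the most abundant per kilobase, did not pass (log2 -0.07), nor did the transporter gene Slc27a1 (-0.00). Against a fold of 1.5, 3 fell and 0 rose, where 20% of all tested genes were called.

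Among targets of the peroxisome proliferator-activated receptors outside the set, 6 rose and 3 fell of 12 tested out of 14, with a median log2 fold change of 0.10. That is 75.0% called, against 64.0% of all tested genes. Pdk4, which encodes a brake on glucose oxidation, had 18.6, 17.7 and 18.03 CPM with dexamethasone, against 1.22, 0.836 and 0.9995 CPM in the controls, a log2 fold change of 4.15 ± 0.15 (SE) (adjusted p = 1.4e-30, edgeR). The most abundant, the fatty acid oxidation genes Hadha, Acadm and Acadvl, differed little (log2 0.14, 0.16 and 0.02), and Acadvl did not pass. Plin2 and Angptl4 are themselves known targets of these receptors. At a coefficient of variation of 0.2 or against a fold of 1.5, 2 rose and 2 fell. The share called over all tested genes was 26.2% at the first setting and 20% at the second.

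The receptors themselves changed little. Pparg had 1.32 ± 0.116 CPM with dexamethasone and 1.22 ± 0.305 CPM in the controls (SD, n = 3 each), and neither Pparg nor Ppara passed (adjusted p = 0.722 and 0.656, edgeR), while Ppard fell by 0.18 on the log2 scale. Of 14 tested regulators of lipid storage out of 15, 7 rose and 5 fell (85.7% called, against 64.0% of all tested genes), with a median log2 fold change of 0.28. Hif1a, the hypoxia-inducible factor and the most abundant per kilobase, fell (log2 -1.49), while Cebpd and Klf15, factors of fat cell formation, rose (1.76 and 1.60). Nr3c1, the glucocorticoid receptor gene, fell by 0.44 on the log2 scale. In the pathway by which hormones control lipolysis, 3 rose and 6 fell of 9 tested out of 13, with a median of -0.29, where 32.3% of all tested genes rose and 31.7% fell. The subunits of protein kinase A moved both ways. Prkar1a and Prkacb fell (log2 -0.29 and -0.60), while Prkar2b and Prkaca, named after their values were seen, rose (1.84 and 0.32). Insr, the insulin receptor gene, rose too (0.08), and Adrb1 and Adrb3 had no count. At a coefficient of variation of 0.2, where 26.2% of all tested genes were called, 5 regulators rose and 3 fell. In the hormone pathway 1 rose and 3 fell at that setting. Against a fold of 1.5, where 20% of all tested genes were called, that pathway had 1 rise and 0 falls.

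Other cell types in which these genes are known had few traces. Of 10 muscle markers 8 were listed and 2 tested, Tnnt3 and Myod1, which both fell. The summed level was 15.2 to 16.3 CPM with dexamethasone and 25.9 to 26.9 CPM in the controls. Most of that sum was Tnnt3, at 14.6 CPM with dexamethasone and 24.0 CPM in the controls. Of 10 endothelial markers 9 were listed and 3 tested, of which Tek rose and Egfl7 and Vwf fell, with sums of 5.19 to 6.11 CPM with dexamethasone and 7.37 to 8.04 CPM in the controls. Of 10 erythroid and megakaryocyte markers 8 were listed and 4 tested, of which Itga2b rose though its groups overlap, Alas2 fell and Gp1bb and Klf1 did not pass, with sums of 1.75 to 2.46 CPM with dexamethasone and 1.61 to 2.42 CPM in the controls. The called share was 100% of 2 muscle, 100% of 3 endothelial and 50% of 4 erythroid and megakaryocyte markers tested, against 64.0% of all tested genes. Vwf and Alas2 passed the filter through the control libraries, where they are high, so their calls could hardly have been rises. Emcn, Cldn5, Myog and Hbb had no count, and the part of these cells in the results was not tested.

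For Plin4 and Plin2 the genes with the most similar pattern over the 6 libraries were found among 8917 tested genes with a conventional symbol and a mean of at least 5 CPM. The measure was the root mean square difference of log2 CPM, each gene centred on its own mean. Closest to Plin4 were Cables1 (0.0988), Slc10a6 (0.308) and Cfap100 (0.379), and closest to Plin2 were Nfxl1 (0.0254), Arhgef40 (0.0261) and Esrra (0.0279). Because both patterns consist almost wholly of the step between the groups, these are genes with a step of like size: Cables1 differed by 5.24 and Nfxl1 by -0.65 on the log2 scale.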

How the data were processed

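RNA was sequenced from 6 samples, and the authors deposited 1 table of raw read counts per gene with exon coordinates and exon lengths, per the file headers. The aligner, counting program and strand setting were not given in the sources used here. The submitters' processing notes list the build mm10, a mouse build, while the table holds rat symbols and contigs; coordinates are printed as the table gives them. Samples were grouped by title, because the treatment tag reads the same for all 6. No column belonged to another sample, and 0 rows lacked a gene name.

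Genes were filtered with filterByExpr, scaled by TMM, then tested in edgeR 4.0.16 (quasi-likelihood, robust, R 4.3.3) with no covariate and Benjamini-Hochberg adjustment; a call needed an adjusted p below 0.05. SEs come from log2 CPM (prior count 2) across replicates. Levels per kilobase used the listed exon length. A floor of 6 counts (3 read pairs) over a group was used, and intervals took counts as pairs, divided by 2 and rounded up. Alternatives were RLE factors, library size alone, no filter, DESeq2 1.42.0, limma-voom 3.58.1, a replicate block, a coefficient of variation of 0.2, a fold of 1.5, halved counts and each library left out. The common coefficient of variation between replicates was 3.66%. The fit was tested on simulated data.

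Members and the 14 lists of other genes were chosen with earlier results of these data known. Older symbols were matched through the RefSeq table (Ldaf1 as Tmem159, Hspg2 as AABR07073181.1); Mlxipl, Pecam1, Myh1, Myh2 and Hba1 were among the list genes not analysed here. Genes named beside the members were the 3 tested genes of each list with the highest level per kilobase and a fixed set of further genes, unless stated otherwise. Promoter motifs and protein identities were not analysed here.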

Additional observations from a re-analysis of the deposited data

How the results depend on the processing

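No tested perilipin or lipase gene changed direction under the 15 alternatives. Plin2, Plin4, Lpl and Angptl4 were called in all of them, with log2 fold changes of -0.70 to -0.64, 4.96 to 5.68, -2.75 to -2.46 and -0.87 to -0.78. Plin3 was not called with library size alone (log2 -0.087), at a coefficient of variation of 0.2 (-0.12) or against a fold of 1.5 (-0.13), and ranged from -0.16 to -0.087 when 1 library was left out, with the call lost in 3 of 6 such fits. Lipe was not called at a coefficient of variation of 0.2 or against a fold of 1.5 (log2 0.40 in both), nor was Pnpla2 against a fold of 1.5 (log2 0.77). Setting the coefficient of variation to 0.2 left 3693 called genes, 1993 higher and 1700 lower, and the fold of 1.5 left 2827, 1549 higher and 1278 lower; against that fold 1 perilipin or lipase gene was called higher. Over all lists, 48 genes were called higher and 50 lower, where 64.0% of all tested genes were called. At a coefficient of variation of 0.2, 24 were called higher and 34 lower, where 26.2% of all tested genes were called. Against a fold of 1.5, 20 were called higher and 27 lower, where 20% of all tested genes were called. Both settings are stricter by construction. Shares of counts without length correction differed by 0.0788 (Plin1), -14.0 (Plin2), 4.91 (Plin3) and 8.98 (Plin4) percentage points, dexamethasone minus control. Deviations of same-numbered replicates did not correlate (0.0026, -0.0078 and 0.0203 for 3 pairs), and those of other-numbered replicates ranged from -0.0335 to 0.0306. Whether the numbers pair the samples cannot be told from these values, since deviations this small may be mostly counting error. With the replicate block 8991 genes were called in place of 9027, and no call of a perilipin or lipase gene changed. Depth limits Plin1, Plin5, the control level of Plin4 and the dexamethasone level of Lpl (14, 8 and 10 counts). In a single library 6 counts come to 0.142 to 0.170 CPM with dexamethasone and 0.150 to 0.156 CPM in the controls.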
